A study of Mus musculus with 3 samples.

Results

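The genes described here are the mouse cadherins and nonclustered protocadherins that are named by a number, that is, the protein-coding genes whose symbol is Cdh or Pcdh followed only by digits. The rule found 34 genes among 21883 protein-coding genes on chromosomes 1 to 19, X and Y. By role they were 5 type I classical cadherins, 13 type II classical cadherins, 5 other cadherins that share the symbol pattern (Cdh13, Cdh16, Cdh17, Cdh23 and Cdh26), 3 delta-1 protocadherins, 5 delta-2 protocadherins and 3 other protocadherins. The name "classical" therefore does not cover every gene taken by the rule: Cdh13 encodes T-cadherin, which is held in the membrane by a lipid anchor, and Cdh23 and Pcdh15 encode the tip-link proteins of inner-ear hair cells.

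The transcription factor MEIS2, a TALE homeodomain protein, was mapped by CUT&Tag, in which an antibody directs a transposase to the chromatin sites where its target sits. A peak from a tissue does not tell apart binding in few cells from weaker binding in many. There were 2 MEIS2 libraries, made with a mouse polyclonal anti-MEIS2 antibody, and 1 library without an antibody, each from 100000 cells of the lateral ganglionic eminence (LGE) of wild-type CD1 embryos at embryonic day 14.5. The LGE is the embryonic ventral forebrain region that gives rise to striatal projection neurons and olfactory bulb interneurons. The caller kept 7618406 and 6559629 tags in MEIS2 replicates 1 and 2, against 6337375 without antibody, and listed 78060, 82093 and 9869 peaks. Before duplicates were dropped the totals, in the same order, were 74259592, 79760948 and 72763762, with redundant rates of 0.90, 0.92 and 0.91. Most of the sequenced tags of every library were therefore duplicates, and the peaks rest on the small remainder. The labels do not say whether the MEIS2 libraries came from separate litters, so the spread between them may be technical. Peak lists hold no expression values, so the labelled tissue could not be checked against its markers.

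Classical cadherins are single-pass membrane proteins that bind the same or a similar cadherin on a neighbouring cell in the presence of calcium, and grip the actin cytoskeleton through beta-catenin and alpha-catenin. Type II cadherins and delta-protocadherins are expressed in combinations that differ between neuronal populations of the developing brain, and are known for roles in cell sorting, axon guidance and synapse formation. Many of their genes have long introns. A peak count therefore has to be read against gene length, and the counts below are also given per 100 kb.

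A peak was called reproducible when it was listed in replicate 1, shared at least 1 bp with a peak of replicate 2, and touched no peak of the no-antibody library. There were 47809 such peaks in the genome. A peak was placed by its replicate 1 summit: at a gene end (within 1 kb of either end of the gene), inside the gene (more than 1 kb from both ends) or in the flank (outside, more than 1 kb and up to 50 kb away). The fold enrichment given for each peak is the authors' value within 1 library, the pileup of tags over the local expectation, and the lower of the 2 replicates' values is called the lower fold. With peak lists and 1 control library no test between the antibody and no-antibody libraries was possible, and counts are set beside those of all protein-coding genes as a description.

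By number, MEIS2 peaks at these genes lay mostly inside the gene and in the flanks, and fewest at the gene ends. The end windows are narrow, and per 100 kb the peaks were densest there, 11.0, against 1.26 inside and 2.19 in the flank. A reproducible peak stood within 1 kb of an end in 14 of 34 genes (41.2%), against 52.4% of all protein-coding genes. Inside the gene there was at least 1 in 25 of 34 (73.5%), against 34.6% of all. In the flank there was at least 1 in 24 of 34 (70.6%), against 86.2% of all. The cadherin and protocadherin genes had a median length of 115 kb, against 17.2 kb for all protein-coding genes, and together spanned 9.46 Mb.

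Among genes over 100 kb the inside share was near the background, so it is no result about these genes, whereas the share with an end peak was below it. Among the 18 genes over 100 kb, 16 (88.9%) had an inside peak, against 84.7% of the 2428 protein-coding genes of that length. At the ends, 7 of those 18 genes (38.9%) had a peak, against 65.6% of the long protein-coding genes, and in the flank 10 of 18 (55.6%), against 79.9%. Among the 9 genes over 300 kb, 2 (22.2%) had an end peak, against 62.1% of 556 protein-coding genes of that length, and all 9 had an inside peak, against 98.0%. Of the 16 shorter genes, 7 (43.8%) had an end peak, against 50.7% of protein-coding genes up to 100 kb, and 14 (87.5%) a flank peak, against 87.0%. Inside peaks stood in 9 of the 16 (56.2%), against 28.4%. This class was not matched in length, with a median of 34.5 kb for the 16, against 14.1 kb. Inside density was 2.33 per 100 kb, against 2.13, so per length the shorter genes were near their background. Across the 34 genes the inside count followed length (Spearman rho 0.678), whereas inside density did not (rho -0.0634). These are descriptions over genes of 1 peak set. In place of 14, the genes with an end peak numbered 8 when every list was held to a −log10 q of at least 5. They numbered 8 with an end of 500 bp, 20 with 2.5 kb, and 15 and 16 without replicate 1 or 2. With the 5000 peaks of highest fold per list there were 0. The end density was 0.744 times that of all protein-coding genes in the main setting. It was 0.609 times at that q, 0.523 at 500 bp, 0.985 at 2.5 kb and 0 with 5000 peaks. Shares of all genes at these settings are not given.

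**Figure D1:**
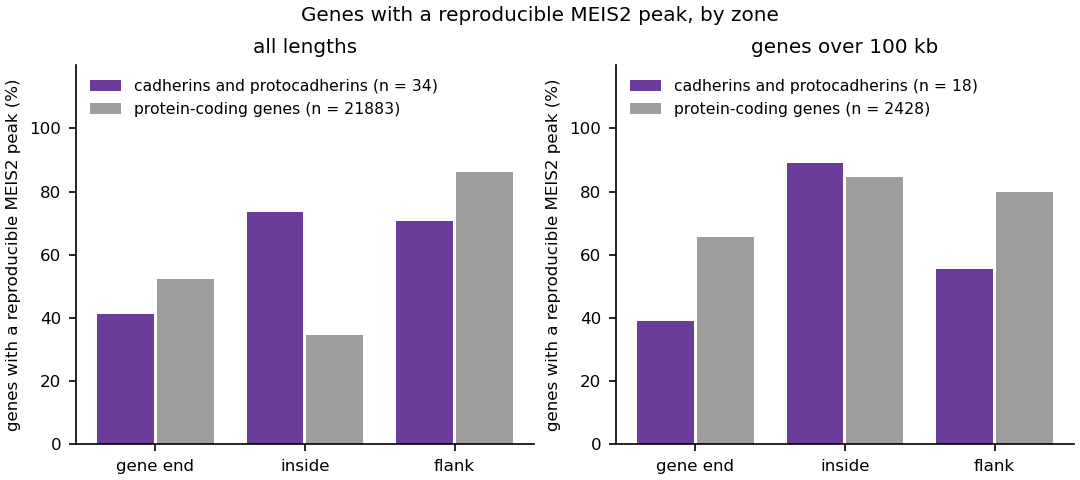
Percentage of genes (vertical axis) with at least 1 reproducible MEIS2 peak at a gene end, inside the gene or in the flank, for cadherins and protocadherins (purple) and all protein-coding genes (grey), over all lengths (left) and over genes above 100 kb (right). The purple bars are lower at the ends (41.2% against 52.4%, and 38.9% against 65.6%), and inside the gene the difference seen over all lengths (73.5% against 34.6%) is small among long genes (88.9% against 84.7%).

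Per 100 kb, the 34 genes held 11.0 peaks within 1 kb of their ends, 1.26 inside and 2.19 in the flank, against 14.8, 1.58 and 3.02 for all protein-coding genes. Among genes over 100 kb the inside density was 1.18, against 1.23 for all protein-coding genes of that length, the end density 11.1, against 18.1, and the flank density 1.36, against 2.05. Above 300 kb the order turned inside, 1.19 against 1.04, and in the flank, 1.81 against 1.69, but not at the ends, 5.55 against 17.0. The end density was 0.744 times that of all protein-coding genes, but 0.985 times when an end was taken as 2.5 kb. When each list was cut to its 5000 peaks of highest fold the order also turned, and the density was 1.64 times that of all protein-coding genes inside and 2.07 times in the flank. At that cut only 5 of the 34 genes had an inside peak and 5 a flank peak, and no ratio among genes of like length is given. With 1 replicate used alone the inside density was 2.1 to 2.46 per 100 kb, since fewer peaks were dropped. In all, 201 different peaks lay in or near these genes, 15 at ends, 118 inside and 69 in flanks, and 5 of them fell in the windows of more than 1 of the genes. Of the 73 flank placements, 22 lay within 1 kb of another gene's end and 51 did not. Cdh9, a type II cadherin of 129 kb, was the only one of the 34 with no reproducible peak in its body or 50 kb around it; it had 1 inside peak in replicate 1, 2 in replicate 2 and 1 without antibody. A gene without any reproducible peak was thus 1 of 34 (2.94%), against 7.24% of all protein-coding genes, and 1 of the 18 over 100 kb (5.56%), against 0.865% at that length.

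At the gene ends, no peak of the no-antibody library was found for any of the 34 genes, and the background was likewise low, 0.27% of all protein-coding genes. The sequences just upstream of the annotated start sites are shown for Cdh22, Cdh24, Pcdh18 and Pcdh9, where a reproducible peak covered the whole stretch, because the MEIS2 signal lay over these promoter sequences, and for Cdh20, where the peak only touched the start. The first start site of Cdh7 and a second, overlapping one of Pcdh9 were fully covered too and are not shown. Capitals mark the bases inside the replicate 1 peak and lower case the bases outside it. The sequences are the 250 bases before a start site in RefSeq (GRCm38.p6), written 5′ to 3′ on the gene's own strand.

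Cdh22, chr2:165234738-165234987, minus strand: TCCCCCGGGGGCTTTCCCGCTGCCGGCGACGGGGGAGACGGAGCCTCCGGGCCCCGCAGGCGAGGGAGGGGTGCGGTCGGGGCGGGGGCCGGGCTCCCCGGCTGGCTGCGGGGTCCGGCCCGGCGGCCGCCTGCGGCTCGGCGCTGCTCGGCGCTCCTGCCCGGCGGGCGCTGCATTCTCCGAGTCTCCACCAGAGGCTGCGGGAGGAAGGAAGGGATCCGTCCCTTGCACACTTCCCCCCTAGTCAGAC

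Cdh24, chr14:54641365-54641614, minus strand: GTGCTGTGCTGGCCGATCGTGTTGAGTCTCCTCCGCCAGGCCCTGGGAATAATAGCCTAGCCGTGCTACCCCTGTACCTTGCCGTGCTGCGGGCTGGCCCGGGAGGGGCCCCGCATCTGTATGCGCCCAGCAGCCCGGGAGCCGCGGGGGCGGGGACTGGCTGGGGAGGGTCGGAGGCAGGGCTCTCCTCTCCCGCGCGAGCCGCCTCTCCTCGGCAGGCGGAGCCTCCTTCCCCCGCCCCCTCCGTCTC

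Pcdh18, chr3:49757317-49757566, minus strand: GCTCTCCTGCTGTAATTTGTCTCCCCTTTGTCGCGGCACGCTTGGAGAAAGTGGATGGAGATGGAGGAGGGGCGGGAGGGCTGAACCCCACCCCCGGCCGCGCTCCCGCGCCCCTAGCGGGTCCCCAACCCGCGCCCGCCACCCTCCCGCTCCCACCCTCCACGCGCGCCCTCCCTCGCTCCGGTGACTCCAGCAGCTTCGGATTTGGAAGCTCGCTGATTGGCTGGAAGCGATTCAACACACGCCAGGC

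Pcdh9, chr14:93890680-93890929, minus strand: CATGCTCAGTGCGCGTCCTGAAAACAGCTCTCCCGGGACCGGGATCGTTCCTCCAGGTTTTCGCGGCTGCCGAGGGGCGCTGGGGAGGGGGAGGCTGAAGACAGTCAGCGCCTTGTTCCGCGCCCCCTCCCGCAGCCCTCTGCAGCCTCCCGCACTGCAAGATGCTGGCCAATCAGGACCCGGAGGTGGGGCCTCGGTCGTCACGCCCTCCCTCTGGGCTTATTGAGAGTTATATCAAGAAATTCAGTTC

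Cdh20, chr1:104768270-104768519, plus strand: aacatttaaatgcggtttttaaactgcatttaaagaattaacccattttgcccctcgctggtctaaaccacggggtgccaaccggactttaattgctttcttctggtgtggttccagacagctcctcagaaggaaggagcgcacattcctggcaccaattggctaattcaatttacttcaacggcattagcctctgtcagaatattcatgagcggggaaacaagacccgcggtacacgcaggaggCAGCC

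The share of G and C in the fully covered stretches was 77.6% for Cdh22, 72.8% for Cdh24, 68.0% for Pcdh18, 63.6% for Pcdh9 and 60.8% for Cdh7, against a median of 52.4% over all promoters of the same table. Promoters of these genes that no reproducible peak touched reached like shares, such as 69.2% for Pcdh19 and 64.8% for Pcdh17. In Cdh20 the peak began 5 bases before the start site and ran downstream from it.

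TGACAG, a core sequence that MEIS-type homeodomains are known to bind, was searched on both strands (CTGTCA on the other) in windows of 250 bases before to 50 after each start. Of the 34 genes, 22 were in that table, with 25 promoters. The letters were present in 4 of 25 promoters (16.0%), against 19.2% of 32851 promoters, and in 4 of 22 genes (18.2%), against 21.2%. No copy lay inside a reproducible peak. The copies of Cdh20 and Cdh6, which both had a start-site peak, are shown with the 6 letters in capitals.

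Cdh20 window: cggcattagcctCTGTCAgaatattcatga

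Cdh6 window: ctgggagtcattCTGTCAaggggagggggc

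Cdh7 (at its second start site) and Cdh15 held the other copies, and Cdh15 had 3. A match is a description of these letters in these windows and nothing more.

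Among type I cadherins, the family of the widely expressed junctional cadherins, 4 of 5 genes had an end peak, against 52.4% of all protein-coding genes. Where several replicate 2 peaks overlapped a replicate 1 peak, the value given is that of the highest fold. Cdh2 encodes N-cadherin, the main cadherin of neural progenitors; its end peak, chr18:16808215-16809539, had a fold of 5.77 in replicate 1 and 6.21 in replicate 2, with pileups of 26 and 18 tags. A second replicate 2 peak under it, chr18:16808239-16809012, which spanned the replicate 1 summit, had a fold of 4.91 and a pileup of 14. Cdh4 encodes R-cadherin; its end peak, chr2:179442279-179443681, was 1403 bp long with folds of 6.36 and 6.11 and pileups of 21 and 16. For comparison, the median lower fold of end peaks over all protein-coding genes was 6.19. Cdh3, for P-cadherin, had an end peak at chr8:106511128-106511959 with folds of 7.12 and 5.53 and pileups of 18 and 10. Cdh1, for E-cadherin, which lies next to Cdh3 and is the hallmark cadherin of epithelia, had one at chr8:106603249-106603861 with folds of 7.31 and 5.16 and pileups of 18 and 9. The muscle cadherin gene Cdh15 had an end peak in replicate 1 alone (fold 3.48), so it was not counted.

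Type II cadherins had an end peak in 5 of 13 genes (38.5%), against the same 52.4%. Cdh24 had the highest lower fold of any end peak, 6.24 and 7.01 in replicates 1 and 2 with pileups of 25 and 21 at chr14:54641095-54641614; that peak also lay within 1 kb of an end of the neighbouring gene Acin1. Cdh22 alone had 2 end peaks. The peak over its start site, chr2:165233491-165235254, was 1764 bp long with folds of 6.15 and 6.39 and pileups of 28 and 20. The peak at the other end of the gene, chr2:165112098-165112737, had folds of 6.36 and 5.54 and pileups of 22 and 12. Cdh20 had an end peak at chr1:104768515-104769099, with folds of 5.86 and 5.74 on low pileups of 9 and 8. Cdh7 had folds of 9.09 and 3.83 and Cdh11 of 4.68 and 4.60, and among the type II end peaks the replicates were furthest apart at Cdh7.

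The other end peaks belonged to 1 further cadherin and 4 protocadherins. Pcdh1, a delta-1 protocadherin, had an end peak at chr18:38211402-38212032 with folds of 5.23 and 6.83 and a pileup of 19 in each replicate. Of the delta-2 protocadherins, which act in cell movement and axon outgrowth, 3 of 5 had one (60.0%), near the 52.4% of all genes: Pcdh18 with folds of 7.06 and 5.10, Pcdh17 with 4.84 and 4.72, and Pcdh8 with 4.61 and 4.56. The Cdh23 end peak was the weakest of the 15, with folds of 3.55 and 3.32, and lay also within 1 kb of an end of Psap. Where the strand of the gene was known, the peak was at the start-site end for Cdh7, Cdh20, Cdh24, Pcdh8, Pcdh17 and Pcdh18, and at the far end for Cdh23. Cdh26 (replicate 2, fold 6.38) and Pcdh20 (replicate 1, fold 4.7) had an end peak in 1 replicate, and 17 of the 34 genes in neither.

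Some start sites lie away from the outermost end of the gene, so peaks were also counted at the RefSeq start sites, a choice made after the counts at gene ends were known. A reproducible summit lay within 1 kb of a start site in 10 of the 22 genes in that table (45.5%), against 54.3% of 17491 protein-coding genes. Among the genes over 100 kb it was 6 of 14 (42.9%), against 75.5% of 1866. In 3 genes a start-site peak had been counted as inside: Pcdh9 (chr14:93890665-93891187, folds 10.4 and 6.38), Cdh6 (chr15:13173025-13173631, folds 8.97 and 7.01) and Cdh8 (chr8:99416156-99416694, folds 5.62 and 5.10). The annotated 5′ end lay far from the start site of that table in Pcdh15 (726 kb), Cdh12 (663 kb) and Cdh18 (488 kb).

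Inside the genes, 6 members held 75 of the 118 peaks. Pcdh15, which is 1554 kb long, had 22 and 38 inside peaks in MEIS2 replicates 1 and 2, against 8 without antibody, and 16 were reproducible. Cdh13 (1185 kb) had 19 and 34, against 1 without antibody, with 13 reproducible. Cdh23 (394 kb) had 36 and 26, against 0 without antibody, with 14 reproducible. In all 3 genes the MEIS2 libraries listed more peaks than the no-antibody library, but only in Cdh23 did replicate 1 list more than replicate 2. Cdh12 (1150 kb), a type II cadherin of the brain, had 17 and 24, against 6, with 11 reproducible. Cdh18 (929 kb), a close relative of Cdh12, had 15 and 23, against 6, with 11 reproducible. Cdh4 (457 kb) had 24 and 13, against 0, with 10 reproducible, so Cdh4 and Cdh23 shared a count that was higher in replicate 1 and no inside peak without antibody. When every list was held to a −log10 q of at least 5, Cdh12 had 11 inside peaks, Cdh18 had 12 and Pcdh15 had 12, whereas Cdh13 had 7, Cdh23 had 4, Cdh4 had 4 and Cdh22 had 2. That cut also shortened the no-antibody list, so peaks excluded for touching it could return, and Cdh18 rose from 11. Cdh23, Cdh4 and Cdh22 had no such peak inside, so these counts do not compare peak strength alone.

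**Figure D2:**
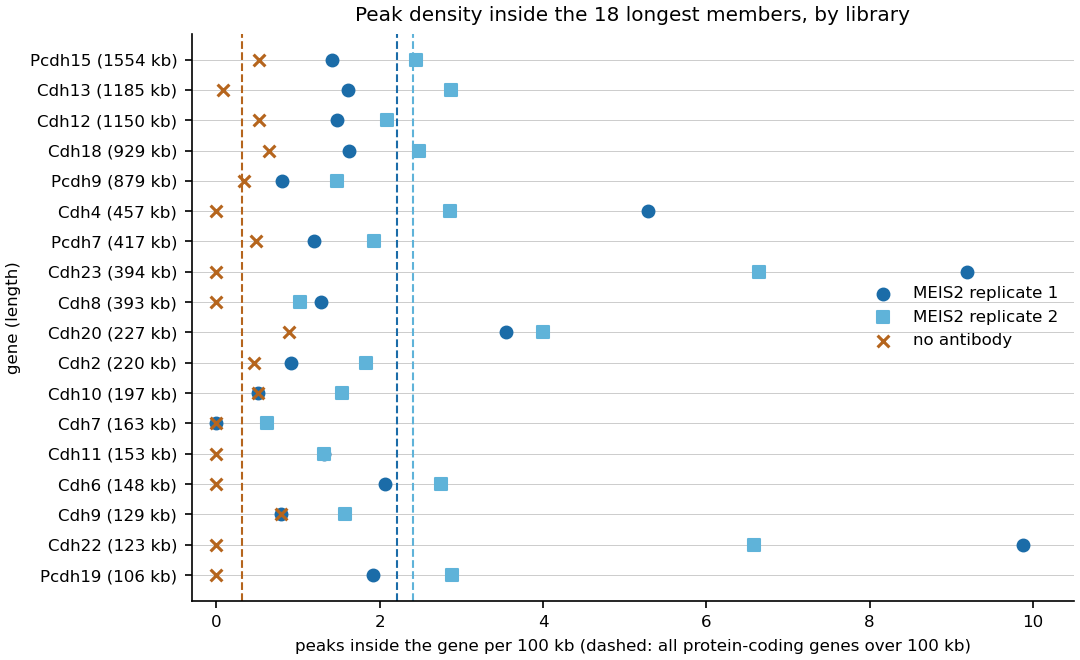
Peaks inside each of the 18 genes over 100 kb per 100 kb (horizontal axis), in MEIS2 replicate 1 (dark circles), MEIS2 replicate 2 (light squares) and the no-antibody library (crosses), with genes ordered by length from top to bottom and dashed lines for all protein-coding genes over 100 kb. Cdh22 and Cdh23 lie far to the right of the lines in each MEIS2 library and at 0 without antibody, whereas most of the longest genes lie near or left of the MEIS2 lines. Without antibody, Cdh18 (0.648), Cdh12 (0.523), Pcdh15 (0.516), Pcdh7 (0.482) and Pcdh9 (0.342) lie right of their line at 0.309, and Cdh13 (0.0845) lies left of it. The shorter genes Cdh20 (0.888), Cdh9 (0.79), Cdh10 (0.512) and Cdh2 (0.458) also lie right of it, the first 2 furthest of all.

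Per length the order changed. Of the genes with at least 3 inside peaks, the densest were Pcdh1 with 12.4 per 100 kb over its 26.1 kb, Pcdh10 with 5.54, Cdh22 with 4.12, Cdh23 with 3.57, Cdh4 with 2.2 and Cdh6 with 2.06. Cdh22 had 12 and 8 inside peaks in MEIS2 replicates 1 and 2, against 0 without antibody, and its density was above that of 96.3% of the protein-coding genes over 100 kb. Cdh23 stood above 93.7% of them, Cdh4 above 82.2% and Cdh6, a type II cadherin known from the boundary between embryonic cortex and LGE, above 79.9%. The other genes with high counts were near the middle of that range: Pcdh15 stood above 51.7%, Cdh13 above 53.5%, Cdh18 above 55.6% and Cdh12 above 46.9%. The inside peaks of Pcdh1 had folds of 2.82 and 3.65, 3.24 and 3.10, and 7.0 and 4.68 in replicates 1 and 2, so 2 of the 3 were weak. Pcdh10, a delta-2 protocadherin known for striatal and other forebrain axon tracts, had 3 inside peaks in each replicate, against 0 without antibody, with lower folds of 3.46, 5.23 and 4.46. Cdh6 had 3 and 4, against 0 without antibody, with lower folds of 7.01, 8.84 and 7.01.

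By class, inside density was 2.26 per 100 kb for the delta-2 protocadherins, 1.64 for the other cadherins, 1.5 for type I cadherins, 1.13 for type II cadherins, 1.08 for the other protocadherins and 0.988 for the delta-1 protocadherins. In the same order, the median gene lengths were 56.2, 59.7, 66.9, 153, 17.3 and 417 kb. The densities pool all bases of a class, so its longest genes weigh most and the median does not describe them. Pcdh15 (1554 kb) made up most of the 1.58 Mb of other protocadherins. Cdh13 (1185 kb) and Cdh23 (394 kb) made up most of the 1.72 Mb of other cadherins. Over all protein-coding genes the inside density was 2.13 up to 100 kb and 1.23 above, so the classes are not compared at equal length. Each class mixed dense and sparse genes. Among the long type II cadherins, Cdh8 (393 kb) had 5 and 4 inside peaks in MEIS2 replicates 1 and 2, against 0 without antibody, and 2 were reproducible. Cdh10 (197 kb) had 1 and 3, against 1, with 1 reproducible, and Cdh7 (163 kb) had 0 and 1, against 0, with none reproducible. Cdh2 (220 kb) was also sparse, with 2 and 4, against 1, and 1 reproducible. The densities of Cdh2, Cdh8 and Cdh10 were above those of 21.2%, 22.8% and 22.8% of the long protein-coding genes.

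The strongest peaks near these genes were far from the gene ends. The strongest lay inside Cdh12 at chr15:21262043-21262601, with folds of 25.9 and 21.6 and pileups of 74 and 62, and ranked 83 of the 47809 reproducible peaks by lower fold. The next was in the flank of Pcdh10, 30.0 kb outside the gene, at chr3:45348187-45348637, with folds of 19.9 and 21.5, pileups of 52 and 65, and rank 216. Pcdh15 held the following pair, at chr10:73294498-73294960 (folds 21.9 and 19.1, pileups 77 and 63, rank 336) and at chr10:74439162-74439527 (folds 21.6 and 17.6, pileups 53 and 43, rank 669). The fifth lay 43.4 kb outside Pcdh7, a delta-1 protocadherin, at chr5:57672371-57673016, with folds of 16.4 in each replicate, pileups of 56 and 49, and rank 1029. In each of these 5 the replicates were within 1.5 times of each other in fold. Ranking by the lower fold itself picks peaks that are high in both replicates, so this closeness is no separate evidence. No base sequence is given for these peaks, which lie outside the promoter windows.

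The 118 inside peaks reached higher folds than the 15 end peaks. Their median lower fold was 5.81 (range 2.82 to 21.6), against 5.23 for the end peaks (3.32 to 6.24), whereas over all protein-coding genes it was 5.54 inside, against 6.19 at the ends. The median pileup followed this order in replicate 2, with 11.5 tags inside, against 10.0 at the ends. In replicate 1 it did not, with 17 inside, against 18 at the ends. A lower fold of at least 10 was reached by 27 inside peaks (22.9%) and by 0 end peaks, against 11.1% of inside peaks and 2.92% of end peaks over all protein-coding genes. Among genes over 100 kb the share of strong inside peaks was 26.0% in the cadherins and protocadherins, against 16.7% in all protein-coding genes. Above 300 kb it was 28.7%, against 21.6%, so the shares were closer among longer genes. Length was still not matched, with medians of 310 kb against 172 kb over 100 kb, and 879 kb against 451 kb over 300 kb. Of the 27, Cdh12 and Pcdh15 held 7 each and Cdh18 and Pcdh9 held 4 each. End peaks were longer, with a median of 613 bp, against 336 bp for inside peaks and 440 bp for flank peaks.

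**Figure D3:**
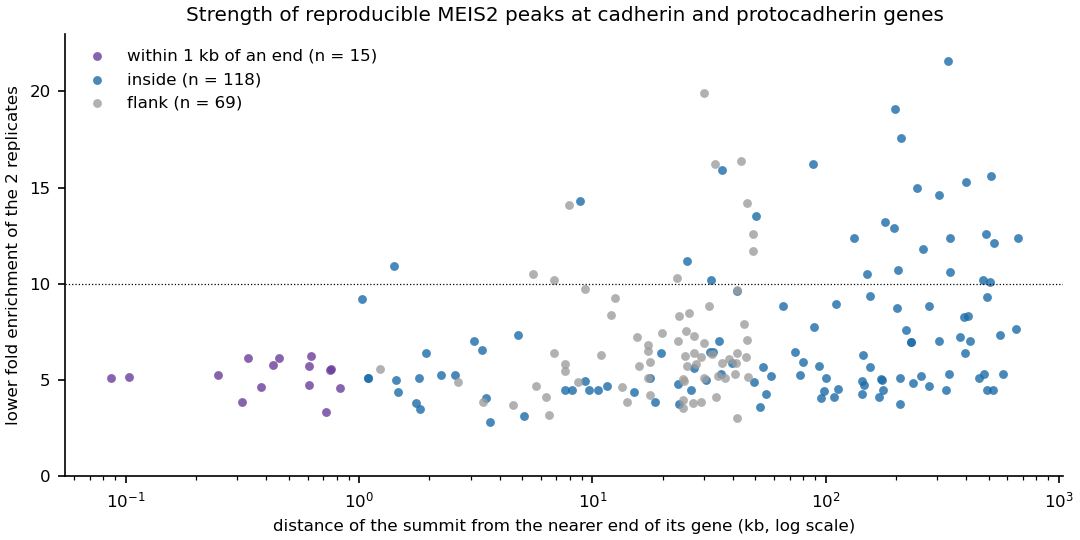
Lower fold enrichment of the 2 MEIS2 replicates (vertical axis) against the distance of the summit from the nearer end of its gene in kb (horizontal axis, log scale), for reproducible peaks at gene ends (purple), inside (blue) and in flanks (grey). Every end peak lies between 3.32 and 6.24, below the dotted line at 10, and 27 of the 118 inside peaks lie at or above it.

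Most of the strong inside peaks were in genes where the no-antibody library also had peaks, and these genes also held most inside peaks of any strength. A no-antibody peak lay inside 12 of the 34 genes (35.3%), against 7.2% of all protein-coding genes, and inside 10 of the 18 genes over 100 kb (55.6%), against 39.7%. Its density inside was 0.351 per 100 kb, against 0.257 for all protein-coding genes, and 0.353 against 0.309 among genes over 100 kb. Above 300 kb there was no such excess: 6 of 9 genes (66.7%) had a no-antibody peak inside, against 73.0%, and the density was 0.354 in each. The 10 long genes with such a peak (median 648 kb) had 97 inside peaks in MEIS2 replicate 1, 158 in replicate 2 and 31 without antibody. They held 67 of the 104 reproducible inside peaks of the long genes, 26 of them with a lower fold of at least 10. The 8 long genes without one (median 158 kb) had 84 in replicate 1 and 61 in replicate 2. They held the other 37 reproducible inside peaks, 1 of them that strong, in Cdh11. The like split of strong peaks over all protein-coding genes is not given. The median lower fold of the inside peaks was 7.65 in the genes with a no-antibody peak, against 5.01 in those without, and the reproducible density 0.976 per 100 kb, against 1.93. This division of the genes was made after the counts were seen.

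The replicates also differed between these gene sets. Replicate 2 listed more inside peaks than replicate 1 in 10 of the 10 long genes with a no-antibody peak, a ratio of 1.63 over the set. The share was 62.5% of the 963 protein-coding genes of that kind. Those 963 were much shorter (median 249 kb, against 648 kb) and 162 of them had equal counts, so these shares are not matched in length. Replicate 2 listed more in 3 of the 8 without one (37.5%), a ratio of 0.726. The share was 38.6% of the 1465 protein-coding genes of that kind, so it was at the background. Over all protein-coding genes above 100 kb the ratio was 1.23 for those with a no-antibody peak and 0.96 for those without. The genes with a no-antibody peak were longer, and the part of length, of the no-antibody signal and of the libraries in the strength of these peaks was not tested.

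**Figure D4:**
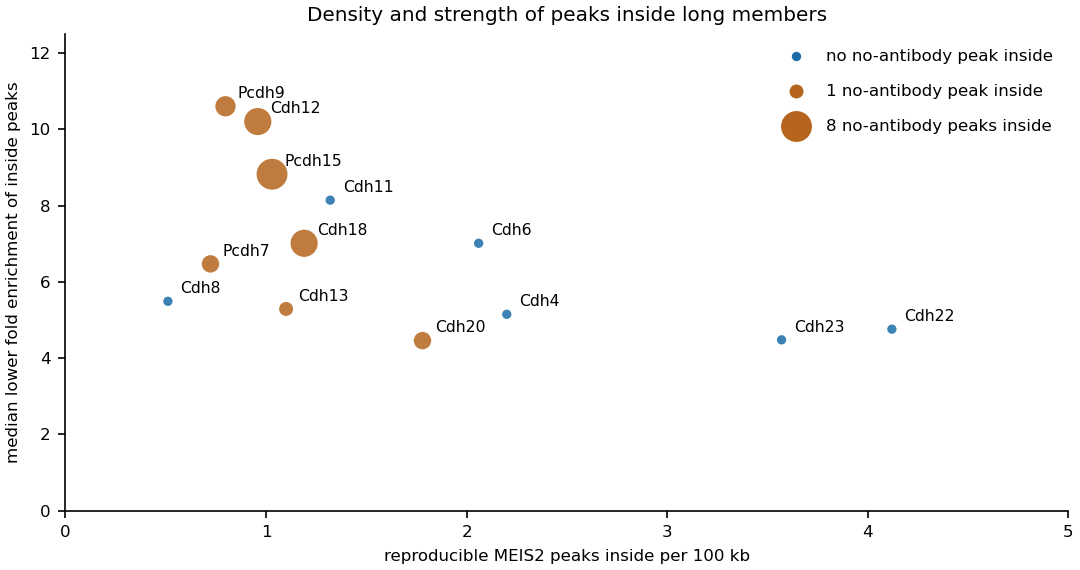
Median lower fold enrichment of the inside peaks (vertical axis) against reproducible inside peaks per 100 kb (horizontal axis), for genes over 100 kb with at least 2 inside peaks; orange points have 1 or more no-antibody peaks inside, sized by their number, and blue points have none. Pcdh9, Cdh12 and Pcdh15 sit at the upper left, with median lower folds of 10.6, 10.2 and 8.82, and Cdh22 and Cdh23 at the lower right, with 4.76 and 4.48 and no no-antibody peak. Others break this order: Cdh20 and Cdh13 have no-antibody peaks inside at 4.46 and 5.29, and Cdh11 and Cdh6 have none at 8.14 and 7.01.

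By construction no reproducible peak overlapped a no-antibody peak, so only the distance between them was compared. Of the 201 peaks, 5 (2.49%) lay within 1 kb of a no-antibody peak, against 1.74% of all reproducible peaks. Inside the genes these were the Pcdh9 peak at chr14:93049258-93050075 (folds 16.0 and 15.9, gap 34 bp) and the Cdh18 peak at chr15:23297137-23297933 (folds 13.7 and 13.2, gap 104 bp). The 27 inside peaks with a lower fold of at least 10 had a median gap of 46.8 kb to the nearest no-antibody peak, against 169 kb for the 91 weaker ones; over the genome it was 80.1 kb for reproducible peaks that strong and 125 kb for all. Within 1 kb of a no-antibody peak lay 2 of those 27 (7.41%) and 0 of the 91, against 1.35% of all reproducible peaks that strong. The strongest no-antibody peaks inside the genes had folds of 6.61 in Pcdh15 (chr10:73221246-73221558), 6.15 in Pcdh9 (chr14:93424504-93424736 and chr14:93660732-93661105), 6.15 in Pcdh7 (chr5:57759451-57759723) and 6.14 in Cdh18 (chr15:22962547-22963023). All 5 were below the folds of the strongest MEIS2 peaks of the same genes, in a library whose fold is scaled only to itself.

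**Figure D5:**
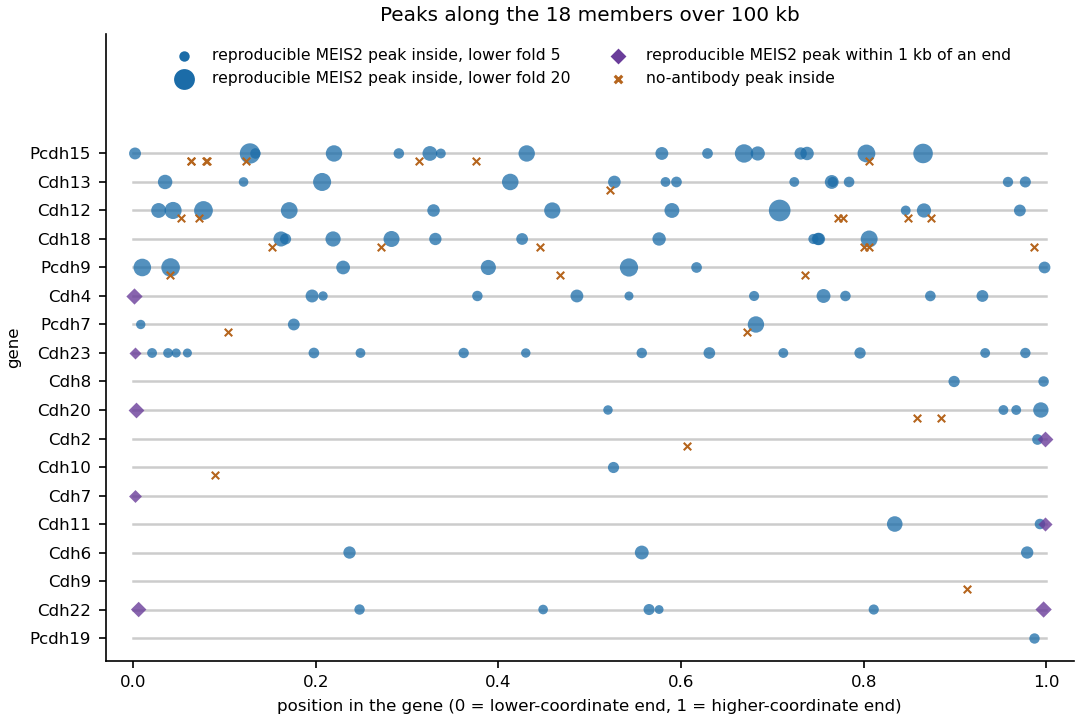
Relative position along each of the 18 genes over 100 kb (horizontal axis, 0 at the lower-coordinate end and 1 at the other) of reproducible MEIS2 peaks inside (blue circles, sized by lower fold), reproducible peaks within 1 kb of an end (purple diamonds) and no-antibody peaks inside (orange crosses). Peaks of the longest genes are spread along the gene with large circles in Cdh12 and Pcdh15, whereas the peaks of Cdh22 and Cdh23 are small and accompanied by no cross.

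The share of inside peaks found again in the other replicate was also compared with the rest of the genome. Of the 208 inside peaks of replicate 1, 126 overlapped a replicate 2 peak (60.6%, 95% Wilson interval 53.8 to 67.0), against 58.1% over all protein-coding genes. Of the 247 of replicate 2, 127 overlapped a replicate 1 peak (51.4%, 45.2 to 57.6), against 61.6% (61.0 to 62.2). Within genes over 100 kb the replicate 2 share was 51.1% (44.6 to 57.7), against 56.7% (55.9 to 57.5), and these intervals overlap. The intervals cover counting error only, and neighbouring peaks of a gene are not independent.

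In the flanks, Cdh3 and Cdh24 had most peaks, 8 each. At Cdh24, in a gene-rich stretch, 6 of the 8 lay at the ends of other genes. Cdh13 had 7 flank peaks, 1 of them at an end of Hsbp1, Pcdh1 had 5 and Pcdh7 had 4. Beside those of Pcdh10 and Pcdh7, strong flank peaks lay near Pcdh17 (chr14:84409606-84410191, folds 20.3 and 16.2, 33.6 kb from the gene), Pcdh18 (chr3:49802911-49803320, folds 14.2 and 14.5, 45.8 kb away) and Pcdh20 (chr14:88479175-88479461, folds 14.1 and 22.1, 7.93 kb away). Delta-protocadherins supplied 4 of these 5 strongest flank peaks, and Pcdh20, outside that class by the list used here, the other. This set was picked after its values were seen, so it shows no class pattern. Delta-1 and delta-2 genes held 9 and 7 of the 73 flank placements. Of the 69 different flank peaks, 10 (14.5%) had a lower fold of at least 10, against 6219 of the 47809 reproducible peaks. Their median lower fold was 6.19, against 5.94, so flank peaks as a set were near the genome in strength. The no-antibody library had flank peaks at 13 of the 34 genes (38.2%), against 21.1% of all protein-coding genes, and a flank density of 0.57 per 100 kb, against 0.278 over all protein-coding genes.

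The remaining genes had few inside peaks per gene, and 9 of the 34 had no reproducible one: Cdh3, Cdh7, Cdh9, Cdh15, Cdh16, Cdh26, Pcdh17, Pcdh18 and Pcdh20. Pcdh9 (879 kb) had 7 and 13 inside peaks in MEIS2 replicates 1 and 2, against 3 without antibody, with 7 reproducible. Pcdh7 (417 kb) had 5 and 8, against 2, with 3 reproducible. Cdh20 had 8 and 9, against 2, with 4 reproducible. The no-antibody counts of these 3 genes were lower, in a library that listed 9869 peaks in all, against 78060 and 82093 in the MEIS2 libraries. Pcdh19, a delta-2 protocadherin on chromosome X, had 2 and 3 inside peaks in MEIS2 replicates 1 and 2, against 0 without antibody, and 1 was reproducible. Cdh5, which encodes the endothelial VE-cadherin, had 1 and 2, against 0, with 1 reproducible, and Cdh17, an intestinal cadherin, 1 in each replicate, against 0, with 1 reproducible. Cdh19, a cadherin of the glial lineage, had 2 and 2, against 1, with 1 reproducible. Pcdh12, an endothelial protocadherin, had 1 and 2, against 0, with 1 reproducible. Reproducible inside peaks numbered 2 in Cdh11 and in Pcdh8 and 1 in Cdh1 and in Cdh24, each with no inside peak without antibody. Cdh16, a kidney cadherin, had no reproducible peak at an end or inside and 4 in the flank.

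At the genes of the proteins' partners, whose median length was 104 kb, end peaks were more frequent than over all genes. Of 15 genes for cytoplasmic and nectin partners, 13 (86.7%) had a reproducible end peak, against 52.4% of all protein-coding genes and 65.6% of those over 100 kb; the 2 without were Nectin1 and Nectin3. Ctnnb1, which encodes beta-catenin, had 2 end peaks and none inside. Among the alpha-catenin and delta-catenin genes, Ctnna2 (neuronal alpha-catenin, 1098 kb) had 10 inside peaks with 0 without antibody, Ctnna3 had 11 with 10 without antibody, and Ctnnd2 had 10 with 4 without antibody. Inside density over the 15 genes was 0.934 per 100 kb, against 1.26 for the cadherins and protocadherins. Of 14 cadherin-superfamily genes outside the symbol rule, 8 (57.1%) had an end peak and 13 (92.9%) an inside peak, with Clstn3 the exception. All protein-coding genes had 52.4% and 34.6%, and those over 100 kb 65.6% and 84.7%, beside a median length of 103 kb for the 14. Their inside density was 1.62 per 100 kb. Within them, Celsr2, a planar-polarity cadherin, had 8.61 inside peaks per 100 kb, Clstn1 8.09 and Fat1 4.27.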

How the data were processed

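Each of the 3 libraries has 1 deposited peak table. Per the file headers, the authors ran MACS 2.2.7.1 library by library, using a q cutoff of 0.05, keeping 1 tag per position and giving no control. Bowtie2 2.3.4, Trimmomatic, Picard, the mm10 build and another MACS2 version, 2.1.4, appear in the submitters' processing notes, with no order or role. The deposited signal is the tag pileup at each summit, which depends on depth. The authors' fold enrichment is a ratio to the local expectation within the library, and the −log10 p-value and −log10 q-value are the caller's own, per the file headers. Peak positions and lengths, in bp, are the authors' deposited values.

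Groups followed the antibody label. Gene bodies and start sites came from RefSeq tables (GRCm38.p6, the assembly of mm10), and the promoter table held 22 of the 34 genes. Counting was done with Python 3.11.15, pandas 2.3.3 and NumPy 2.4.6, figures with matplotlib 3.10.9, Wilson intervals and correlations with SciPy 1.17.1, and the counting code was tested on simulated peaks. No test was applied: the data are peak lists with 1 control library. The genes, the partner lists and the tests were chosen with earlier results of these data known. Values per library are given for up to 8 genes with an end peak by lower fold, the 6 with most inside peaks, the 6 of highest inside density among those with at least 3, the 5 strongest peaks, and genes with no peak or with a no-antibody peak. Alternatives were the overlap, the peak threshold, the number of peaks per list, each replicate left out, no-antibody overlaps kept, the distances for ends and flanks and the summary over genes; the start-site count and the comparison among long genes were added after the data were seen.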

Additional observations from a re-analysis of the deposited data

How the results depend on the processing

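Leaving out the settings that could not change a value (the flank width for end and inside results), 83 values of the 9 main results were recomputed. Of these, 47 were within 1.5 times of the reported count or, for densities and ratios, within 1 SD of the replicates' values; a flank of 25 kb gave 16 genes with a flank peak (reported 24), at that limit. With at least 50% reciprocal overlap, the end density per 100 kb was 8.82 (reported 11.0) and the flank density 1.77 (reported 2.19). With a −log10 q of at least 5, the genes with an end peak numbered 8 (reported 14), the end density was 6.61 and its ratio to all protein-coding genes 0.609 (reported 0.744), the inside density 0.82 (reported 1.26), the flank density 1.74 and its ratio 0.903 (reported 0.724). With the 5000 peaks of highest fold per list, genes with end, inside and flank peaks numbered 0, 5 and 5 (reported 14, 25 and 24), the densities were 0, 0.138 and 0.15, and the ratios 0, 1.64 and 2.07. With an end of 2.5 kb the end density was 7.95 and its ratio 0.985. With 500 bp, 8 genes had an end peak, at a density of 11.8 and a ratio of 0.523. The flank density was 2.4 with no-antibody overlaps kept and 2.33 for a flank of 25 kb. As medians over genes, the end density was 0 and the flank density 2.04. Among genes over 100 kb the inside ratio was 0.961 (reported 0.794). Leaving out 1 replicate gave end densities of 13.2 to 14.0 (ratio 0.716 to 0.844), inside densities of 2.1 to 2.46 (ratio 0.751 to 0.931) and flank densities of 3.36 to 3.54 (ratio 0.692 to 0.823). For single genes, 180 of 272 recomputed inside counts were within 1.5 times of the reported one and 92 were not. The causes of these shifts were not tested, beyond each setting's own change in the number of peaks kept or the width counted. No paired analysis was possible because the result comes from no test and the control is 1 library. Pileups at the end peaks were 5 to 28 tags.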
